A study of Mus musculus with 16 samples.

Results

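The genes described here were 10 classical targets of the transcription factor NRF2 and antioxidant enzymes, chosen by symbol from the 24421 genes of the deposited tables: Srxn1, Txnrd1, Gclc, Gclm, Slc7a11, Gsr, Hmox1, Nqo1, Cat and Sod1. All 10 had reads in every library. Gene expression was measured by RNA sequencing of the somatosensory cortex of mice aged 2 to 3 months, labelled as male C57BL/6 (wild-type, WT) or male AcPb-/- (AcPbKO). AcPb is the neuron-specific form of the interleukin-1 receptor accessory protein, whose gene is Il1rap, and AcPb-/- mice are homozygous knockouts. Mice were either kept awake by gentle handling for 8 h, from ZT20 to ZT4 (SD), or left undisturbed (CTL), and all tissue was taken at ZT4, where ZT0 is lights on. The libraries analysed were 3 each of CTL-WT, SD-WT, CTL-AcPbKO and SD-AcPbKO. The labels list as many mice as samples in each group and mention no pooling.

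NRF2, encoded by Nfe2l2, is held at a low level by KEAP1, an adaptor that presents it to a CUL3 and RBX1 ubiquitin ligase for degradation. When cysteines of KEAP1 are modified by oxidants or electrophiles, NRF2 escapes, enters the nucleus, pairs with a small MAF protein and binds antioxidant response elements (AREs), while BACH1 competes for the same elements as a repressor. Its targets make and recycle glutathione, import cystine for it, reduce thioredoxin and peroxiredoxins, and break down heme and quinones. In brain the pathway is known to be more active in astrocytes than in neurons. Catalase and superoxide dismutase 1 remove hydrogen peroxide and superoxide and are widely expressed housekeeping antioxidant enzymes.

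Promoter sequences are shown for the members with a match to 1 of the motifs searched for upstream of the start site, so that the elements named above can be seen beside the levels that follow. RefSeq promoters (250 bases before to 50 after a start site, GRCm38.p6) were at hand for Srxn1, Gclm, Txnrd1 (3 start sites), Slc7a11, Nqo1, Cat and Sod1. The ARE core TGACNNNGC was searched for on both strands, as was the AP-1 site TGAGTCA, which overlaps the longer form of the ARE. An ARE core was found for 4 members, Srxn1 (28 to 36 bases after the start), Gclm (134 to 126 before), 1 of the 3 Txnrd1 start sites (92 to 84 before) and Sod1 (56 to 48 before). Such a core stands in 12.4% of all 32851 promoters, and in a promoter of 14.0% of the 27025 genes they belong to. The AP-1 site was found for Srxn1 alone, at 102 to 96 and at 45 to 39 bases before its start. It is in 5.20% of all promoters and in a promoter of 5.95% of these genes. No match was found in the windows of Slc7a11, Nqo1 and Cat. A match is a description of the letters and not of binding. The 150 bases before each start site are printed 5′ to 3′ on the gene's strand, with matches in capitals: the 2 AP-1 sites of Srxn1 (chr2:152105374-152105523), and the ARE core, read on the opposite strand, of Gclm (chr3:122245407-122245556), Txnrd1 (chr10:82859056-82859205) and Sod1 (chr16:90220612-90220761).
Srxn1: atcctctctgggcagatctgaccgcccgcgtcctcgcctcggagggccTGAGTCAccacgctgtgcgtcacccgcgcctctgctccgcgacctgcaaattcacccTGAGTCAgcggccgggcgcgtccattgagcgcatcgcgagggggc
Gclm: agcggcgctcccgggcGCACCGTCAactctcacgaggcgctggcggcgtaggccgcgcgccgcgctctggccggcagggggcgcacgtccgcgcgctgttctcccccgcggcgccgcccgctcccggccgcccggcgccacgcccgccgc
Txnrd1: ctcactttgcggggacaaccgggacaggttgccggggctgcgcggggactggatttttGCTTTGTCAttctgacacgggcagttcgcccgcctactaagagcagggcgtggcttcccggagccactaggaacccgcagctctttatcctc
Sod1: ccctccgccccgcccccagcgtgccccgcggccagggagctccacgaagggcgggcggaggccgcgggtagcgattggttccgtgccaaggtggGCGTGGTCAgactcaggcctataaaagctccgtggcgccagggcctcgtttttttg

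Some features of the libraries bear on every SD comparison. Total reads on genes were 32870075 to 41615582 in CTL-WT, 58770286 to 71775967 in SD-WT, 26504840 to 35683409 in CTL-AcPbKO and 63413467 to 71857505 in SD-AcPbKO, so every SD library was deeper than every control. Against the label of male mice, 2 of the 3 controls of each genotype had 25352 to 39358 reads of Xist, which is transcribed from the inactive X chromosome of females, and at most 2 reads summed over 4 Y-linked genes. The other 8 libraries had 5 to 13 Xist reads and 5105 to 10593 Y-linked reads, and all 6 SD libraries were among them. Results are therefore also given from the 8 libraries without Xist reads, in 1 fit of the 4 groups in which each genotype keeps 1 control and that control is assumed to vary like the other groups. Gene-level Il1rap reads count every isoform and so cannot check the loss of AcPb. Its normalized counts were 1476 to 1520 in CTL-WT and 1515 to 1647 in CTL-AcPbKO. In library 4 of SD-AcPbKO the summed level of 5 choroid plexus markers was 17959, against at most 587 elsewhere. Markers of cortical excitatory neurons were abundant in every library, with summed levels of 88052 to 114710.

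Levels per library are given as normalized read counts, with all 12 libraries scaled together, while log2 fold changes come from the table of each pair of groups, on the log2(normalized count + 1) scale. Per kilobase of the principal transcript, the mean over 12 libraries was highest for Sod1 (9131, range 7486 to 10134), followed by Srxn1 (1919, range 1634 to 2238). Neither range overlapped with that of any other member. Gclc (896 per kb), Cat (800 per kb) and Txnrd1 (723 per kb) came next, with ranges that overlapped from one to the next. Gsr (374 per kb), Slc7a11 (274 per kb) and Gclm (259 per kb) formed a lower group, in which the range of Slc7a11, 166 to 419, covered those of Gsr and Gclm. Hmox1 (135 per kb) and Nqo1 (84.3 per kb) were lowest, with ranges that overlapped each other and, for Hmox1, the lower end of that of Slc7a11, and their counts rested on 94 to 411 and 76 to 200 reads per library.

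In wild-type mice 3 of the 10 members rose (Srxn1, Gclc and Hmox1) and 1 fell (Slc7a11) at an adjusted p under 0.05 (limma, Benjamini-Hochberg over 20417 genes). That is 4 of 10 beside 25.4% of all genes tested, of which 13.2% rose and 12.2% fell. In AcPb-/- mice 3 members rose (Srxn1, Gclc and Gclm) and Slc7a11 fell, beside 27.4% of 20574 genes (14.1% higher and 13.3% lower). Groups did not overlap for 5 higher and 2 lower members in wild-type mice, beside 40.2% of all genes (20.5% higher and 19.7% lower). In AcPb-/- mice they did not overlap for 5 higher and 3 lower members, beside 42.3% of all genes (21.7% higher and 20.7% lower). None of these counts of 10 members was tested against its background, so nothing particular about the members is drawn from them. The median log2 fold change of the members was 0.05 in wild-type and 0.09 in AcPb-/- mice, beside -0.0039 and 0.01 over all genes. The sign of the SD effect was the same in both genotypes, which share no library, for 10 of 10 members and for 79.6% of the 20013 genes tested in both.

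**Figure D1:**
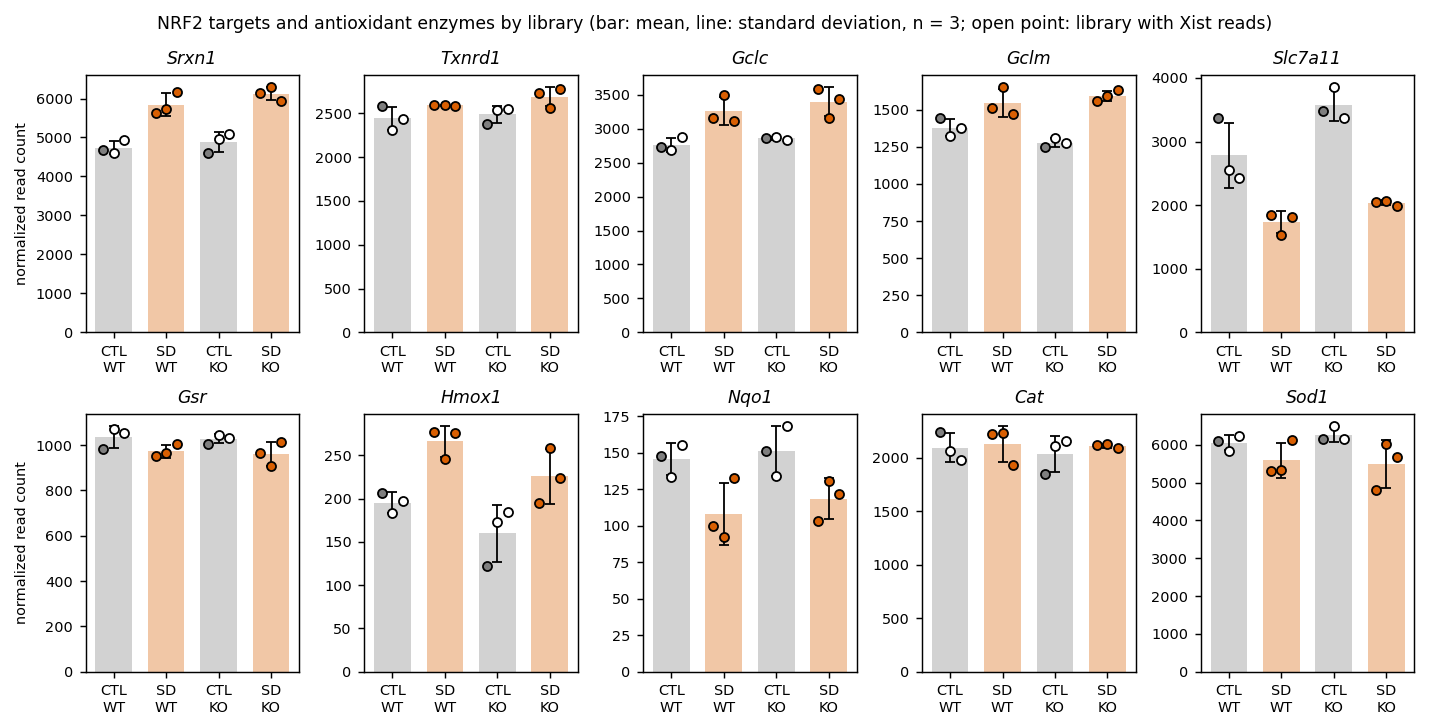
Normalized read count of each member in the 12 libraries (bars are means, lines standard deviations, n = 3 per group; grey bars are undisturbed mice, orange bars SD mice, and open points are libraries with Xist reads; KO is AcPbKO). Srxn1 and Gclc stood higher and Slc7a11 lower in every SD library than in every control of the same genotype, while the groups of Cat and Gsr overlapped in both genotypes.

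Srxn1 encodes sulfiredoxin, which reduces over-oxidized peroxiredoxins back to their working form. The gene lies at chr2:152105516-152111376 on the plus strand (GRCm38). Normalized counts were 4679, 4604 and 4926 in CTL-WT and 5623, 5729 and 6176 in SD-WT. In AcPb-/- mice they were 4595, 4949 and 5084 in CTL and 6141, 6293 and 5945 in SD. Every SD library of either genotype was higher than all 6 controls. Srxn1 rose 1.23-fold in wild-type mice (log2 fold change 0.30, standard error 0.06, limma adjusted p = 0.00578) and 1.26-fold in AcPb-/- mice (0.33, standard error 0.06, adjusted p = 0.00458). Both calls held whichever library was left out. From the libraries without Xist reads alone, the wild-type log2 value was 0.32 with an adjusted p of 0.0682. In whole tissue a change in the number of cells of a type and a change in RNA per cell cannot be told apart, here or for any member below.

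Txnrd1 encodes the cytosolic thioredoxin reductase, which passes electrons from NADPH to thioredoxin, and lies at chr10:82833951-82897712. Its counts were 2577, 2313 and 2434 in CTL-WT and 2591, 2599 and 2582 in SD-WT, so the SD values sat just above the highest control. In AcPb-/- mice they were 2374, 2532 and 2553 in CTL and 2732, 2563 and 2775 in SD, again without overlap. The differences were small and did not pass the threshold: log2 0.09 in wild-type mice (95% confidence interval -0.05 to 0.22, limma adjusted p = 0.337) and 0.12 in AcPb-/- mice (-0.02 to 0.25, adjusted p = 0.194).

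Glutathione is made in 2 steps, of which the first is limiting and is carried out by glutamate-cysteine ligase, a dimer of the catalytic subunit Gclc and the modifier subunit Gclm. Gclc lies at chr9:77754535-77794485 and Gclm at chr3:122245557-122270732. Gclc counts were 2737, 2679 and 2876 in CTL-WT and 3155, 3492 and 3116 in SD-WT. They were 2858, 2873 and 2835 in CTL-AcPbKO and 3590, 3160 and 3443 in SD-AcPbKO. As for Srxn1, each SD library was above all 6 controls. Gclc rose 1.18-fold in wild-type mice (log2 0.23, standard error 0.07, limma adjusted p = 0.0251) and 1.19-fold in AcPb-/- mice (0.25, standard error 0.06, adjusted p = 0.0181). These calls were close to the threshold. In wild-type mice the call was lost without CTL-WT 1, CTL-WT 2, SD-WT 1 or SD-WT 2 (adjusted p 0.059 to 0.112), and in AcPb-/- mice without CTL-AcPbKO 4, CTL-AcPbKO 5, SD-AcPbKO 2 or SD-AcPbKO 4 (0.0566 to 0.0677). With libraries free of Xist reads alone, the log2 values were 0.25 (adjusted p = 0.185) and 0.25 (0.158).

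Gclm counts were 1442, 1323 and 1377 in CTL-WT and 1513, 1655 and 1469 in SD-WT, and 1251, 1310 and 1275 in CTL-AcPbKO and 1560, 1592 and 1631 in SD-AcPbKO. SD and control libraries were apart in each genotype. The gene rose 1.25-fold in AcPb-/- mice (log2 0.32, standard error 0.06, limma adjusted p = 0.00499). In wild-type mice the value was 1.12-fold (0.16, standard error 0.07, adjusted p = 0.122). With dependence on GC content and length regressed out of each library, the AcPb-/- value was 0.18 (adjusted p = 0.0545) and that of Gclc 0.17 (0.0603). Without libraries with Xist reads it was 0.35 (0.0501). Of the exon bases of Gclm, 8.58% overlap other annotated genes, so a small part of its reads may be shared.

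Slc7a11 showed the largest SD difference of the 10 members, and in the opposite direction. It encodes xCT, the light chain of the antiporter that imports cystine for glutathione synthesis in exchange for glutamate and that is found mainly in astrocytes and meningeal cells in brain. The gene lies at chr3:49892526-50443614 on the minus strand. Counts were 3373, 2556 and 2430 in CTL-WT and 1843, 1530 and 1814 in SD-WT. In AcPb-/- mice they were 3483, 3860 and 3377 in CTL and 2052, 2065 and 1989 in SD. The highest SD library of all lay below the lowest control, and CTL-WT 1, the wild-type control without Xist reads, stood well above the other wild-type controls. Slc7a11 fell to 0.625 of the control level in wild-type mice (log2 -0.68, standard error 0.12, limma adjusted p = 0.00316) and to 0.572 in AcPb-/- mice (-0.81, standard error 0.06, adjusted p = 0.000445). Both calls held without any 1 library, and from libraries without Xist reads the log2 values were -0.97 (adjusted p = 0.0404) and -0.77 (0.0254).

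The summed level of 6 meningeal fibroblast markers was lower with SD in both genotypes. It was 4089 to 4371 in CTL-WT and 2628 to 3791 in SD-WT, and 4291 to 5213 in CTL-AcPbKO and 3296 to 4085 in SD-AcPbKO. Of the 6 markers, 2 were lower past the threshold in wild-type and 1 in AcPb-/- mice. All 6 had reads in every library. Summed astrocyte markers were 59335 to 69824 in CTL-WT and 59199 to 65310 in SD-WT, and 58509 to 65096 in CTL-AcPbKO and 58578 to 60636 in SD-AcPbKO, with 3 and 2 of 6 markers lower past the threshold. The part of these cells in the Slc7a11 difference was not tested. Slc3a2, the heavy chain that pairs with xCT and with other amino acid transporters, rose in wild-type mice (log2 0.23, limma adjusted p = 0.0169) and had a value of 0.11 in AcPb-/- mice (0.144).

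Gsr, glutathione reductase, regenerates reduced glutathione with NADPH and lies at chr8:33652523-33698163. Its counts ranged from 981 to 1072 in CTL-WT, 952 to 1003 in SD-WT, 1006 to 1047 in CTL-AcPbKO and 908 to 1012 in SD-AcPbKO, and the groups overlapped. The log2 values of -0.09 in wild-type (95% confidence interval -0.24 to 0.06, limma adjusted p = 0.382) and -0.09 in AcPb-/- mice (-0.25 to 0.06, adjusted p = 0.36) did not pass the threshold.

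Hmox1 encodes the inducible heme oxygenase, which opens heme to biliverdin, iron and carbon monoxide, and Nqo1 encodes a quinone reductase. Hmox1 lies at chr8:75093621-75100589. Its counts were 206, 183 and 197 in CTL-WT and 277, 246 and 275 in SD-WT. They were 123, 173 and 184 in CTL-AcPbKO and 195, 258 and 224 in SD-AcPbKO. SD libraries were above controls within each genotype, although SD-AcPbKO 2 lay below the 2 higher wild-type controls. Hmox1 rose 1.36-fold in wild-type mice (log2 0.44, standard error 0.11, limma adjusted p = 0.0176) and was 1.43-fold higher in AcPb-/- mice without passing the threshold (0.51, standard error 0.18, adjusted p = 0.0704). The wild-type call was lost without CTL-WT 2 (limma adjusted p = 0.0758) or SD-WT 1 (0.0768). It was also lost after every library was thinned to the same number of reads (0.0665) and in the fit of 12 libraries (0.0542). From libraries without Xist reads alone, the wild-type log2 value was 0.36. In AcPb-/- mice the value depended on CTL-AcPbKO 3, the lowest library and the only control there without Xist reads. It was 0.33 without that library (limma adjusted p = 0.149) and 0.87 with that library as the lone control.

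The Nqo1 gene spans chr8:107388225-107403206 on the minus strand. Its counts were 148, 134 and 155 in CTL-WT and 99.7, 92.1 and 133 in SD-WT, and 151, 134 and 168 in CTL-AcPbKO and 103, 131 and 122 in SD-AcPbKO. Groups were apart in each genotype, in both by only a few counts. The log2 values of -0.44 in wild-type (standard error 0.17, limma adjusted p = 0.0784) and -0.35 in AcPb-/- mice (standard error 0.16, adjusted p = 0.144) did not pass the threshold. Without SD-WT 4, the highest of the SD-WT libraries, the wild-type value was -0.60 (limma adjusted p = 0.016), and after thinning to equal depth it was -0.28 (0.267). The fit without SD-WT 4 was the 1 alternative of 20 that called Nqo1 in wild-type mice, and 0 of 20 did in AcPb-/- mice. From libraries without Xist reads alone, the wild-type log2 value was -0.47.

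Cat encodes catalase, the peroxisomal enzyme that splits hydrogen peroxide, and lies at chr2:103453849-103485160. Counts ranged from 1981 to 2241 in CTL-WT, 1930 to 2227 in SD-WT, 1846 to 2153 in CTL-AcPbKO and 2089 to 2123 in SD-AcPbKO, with overlap throughout. The log2 difference with SD was 0.02 in wild-type (95% confidence interval -0.15 to 0.19, limma adjusted p = 0.877) and 0.06 in AcPb-/- mice (-0.10 to 0.22, adjusted p = 0.596). Sod1 encodes the cytosolic copper and zinc superoxide dismutase and lies at chr16:90220754-90226329. Its counts were 6091, 5835 and 6227 in CTL-WT and 5317, 5330 and 6132 in SD-WT, and 6156, 6496 and 6144 in CTL-AcPbKO and 4799, 6033 and 5675 in SD-AcPbKO. In wild-type mice 2 SD libraries lay below all controls and SD-WT 4 lay among them, while in AcPb-/- mice the groups were apart. The log2 values were -0.12 in wild-type (standard error 0.07, limma adjusted p = 0.246) and -0.19 in AcPb-/- mice (standard error 0.08, adjusted p = 0.13). SD-AcPbKO 2 set much of the latter, which was -0.10 without it.

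**Figure D2:**
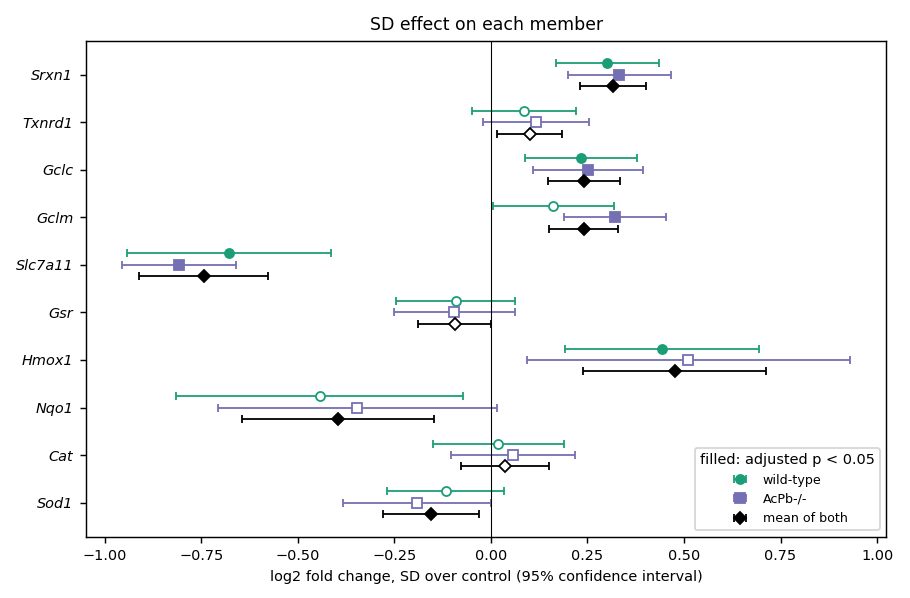
SD effect on each member as log2 fold change of SD over control, with 95% confidence intervals, in wild-type mice (circles), in AcPb-/- mice (squares) and as the mean of both (diamonds), filled where the limma adjusted p was under 0.05. Srxn1, Gclc and Slc7a11 were filled in all 3, and the intervals of the 2 genotypes overlapped for every member.

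The comparison of AcPb-/- with wild-type mice asked whether the members depended on AcPb. In undisturbed mice 0 of the 10 members passed the threshold, beside 0.0197% of 20273 genes (4 genes, with 1730 genes at an unadjusted p under 0.05; DESeq2 called 104 genes and edgeR 8, and no member by either). Slc7a11 had the largest value, 1.29-fold higher in CTL-AcPbKO (log2 0.37, unadjusted p = 0.00915, adjusted p = 0.44 by limma). CTL-WT 1 and the lowest CTL-AcPbKO library were nearly equal, so that the groups overlapped in the table of this pair and were just apart with 12 libraries scaled together. With the control without Xist reads alone in each genotype the value was 0.05. Hmox1 was 0.808 of the wild-type level (-0.31, adjusted p = 0.651), which was -0.13 without CTL-AcPbKO 3. In the scaling of that table the groups of 1 member, Gclm, were apart, with CTL-AcPbKO lower (-0.11, adjusted p = 0.65), beside 14.4% of all genes with groups apart.

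After SD, 0 of the 10 members differed between genotypes at the threshold, beside 0.0145% of 20621 genes (3 genes, with 1265 at an unadjusted p under 0.05; DESeq2 called 99 genes and edgeR 9). Slc7a11 was again the member with the smallest p: all 3 SD-AcPbKO libraries, at 1989 to 2065, were above all 3 SD-WT libraries, at 1530 to 1843 (log2 0.24, unadjusted p = 0.0144, adjusted p = 0.703 by limma). Groups were apart for 11.4% of all genes. Hmox1 was lower in SD-AcPbKO by a value that did not pass (-0.24, adjusted p = 0.861). The other 8 members had log2 values between -0.03 and 0.14.

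Whether SD acted differently in the genotypes was tested as the interaction in the fit of 12 libraries. It was called for 0 of 20978 genes by limma (839 at an unadjusted p under 0.05; 0 by edgeR and 1 by DESeq2), and for 0 of the members by any of these tools. The largest member value was that of Gclm, whose SD effect was 0.16 larger on the log2 scale in AcPb-/- mice (95% confidence interval -0.02 to 0.34, unadjusted p = 0.084, adjusted p = 0.986). For Srxn1 the difference of the SD effects was 0.03 (-0.14 to 0.20), for Gclc 0.01 (-0.17 to 0.20) and for Slc7a11 -0.13 (-0.47 to 0.20). The call of Gclm in AcPb-/- and not in wild-type mice, and that of Hmox1 in wild-type and not in AcPb-/- mice, were thus not shown to be differences between genotypes.

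With the genotypes pooled as the mean of the SD effects in the same fit, a comparison added after the data were seen, 7 of 10 members passed, beside 41.5% of all genes (21.2% higher and 20.3% lower). Srxn1 (log2 0.32, adjusted p = 4.39e-05), Gclc (0.24, 0.000578), Gclm (0.24, 0.000488) and Hmox1 (0.48, 0.00347) rose, and Slc7a11 (-0.74, 1.18e-05), Nqo1 (-0.40, 0.0142) and Sod1 (-0.15, 0.044) fell in this limma fit. Calls of the 4 that rose and of Slc7a11 held under each of the alternatives run for this fit, which include libraries without Xist reads alone. Nqo1 was not called with a term for Xist reads (adjusted p = 0.0814), from libraries without them (0.141) or with replicate number as a block (0.0541), and was called in the other 17 of 20 alternatives. Sod1 lost its call under most alternatives, among them edgeR (0.0522) and 10 of the 12 fits that left out 1 library. Txnrd1 (0.10, adjusted p = 0.0556), Gsr (-0.09, 0.106) and Cat (0.04, 0.619) did not pass.

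SD-AcPbKO against CTL-WT differs in both genotype and sleep and shares its libraries with the comparisons above. It called 4 members (Srxn1 0.37, Gclc 0.30 and Gclm 0.21 higher, Slc7a11 -0.44 lower, on the log2 scale), beside 27.7% of 20560 genes. The call of Gclm was lost without CTL-WT 2, CTL-WT 3, SD-AcPbKO 2 or SD-AcPbKO 4 (limma adjusted p 0.0594 to 0.139) and that of Slc7a11 without SD-AcPbKO 2 (0.0584).

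**Figure D3:**
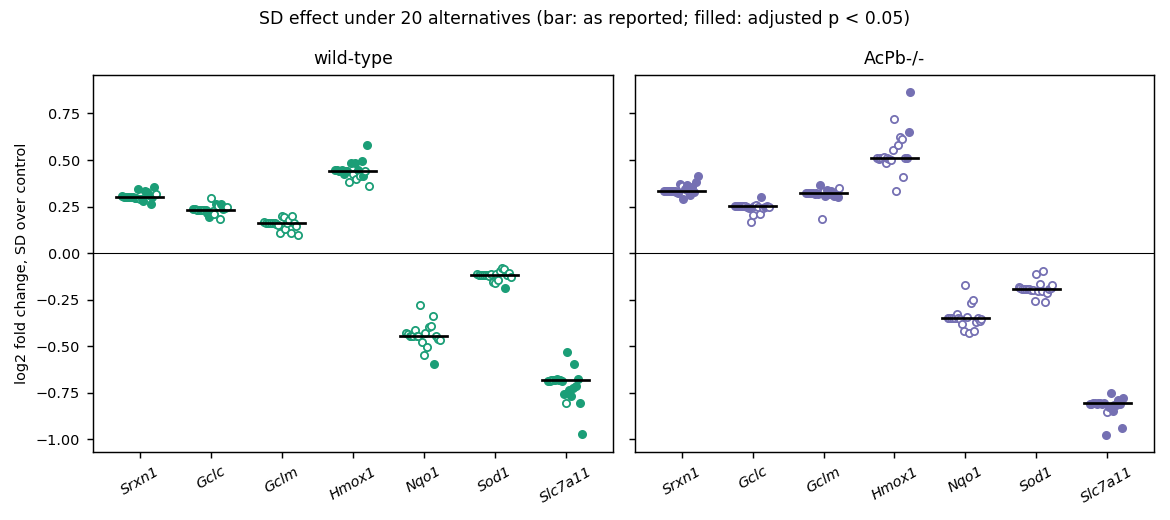
Log2 fold change of SD over control for 7 members under the 20 alternatives run in each genotype (points, filled where the adjusted p was under 0.05), with the reported value as a bar. Srxn1 and Slc7a11 were called in 18 of 20 alternatives in wild-type and 19 of 20 in AcPb-/- mice, and none of the 7 members changed sign.

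The regulators of the pathway are given next, from a list of 10. Nfe2l2 itself, which encodes NRF2, had mean counts of 729 in CTL-WT and 773 in SD-WT, 684 in CTL-AcPbKO and 774 in SD-AcPbKO, and did not pass the threshold (log2 0.08, limma adjusted p = 0.453, and 0.20, 0.317). Keap1, its inhibitor, fell in both genotypes: counts of 3160, 3251 and 3314 in CTL-WT stood against 2489, 2782 and 2847 in SD-WT, and 3433, 3549 and 3588 in CTL-AcPbKO against 2700, 2713 and 2788 in SD-AcPbKO. No SD library reached the lowest control. The log2 values were -0.26 (adjusted p = 0.0157) and -0.36 (0.00195). Of the ligase that KEAP1 serves, Cul3 rose (0.30, adjusted p = 0.0037, and 0.41, 0.00402) and Rbx1 fell (-0.30, 0.0396, and -0.33, 0.00806). Maff, a small MAF partner, rose from a low level, with 40.5, 42.3 and 51.4 counts in CTL-WT and 78.2, 82.9 and 83.0 in SD-WT (0.86, adjusted p = 0.00752) and with a log2 value of 0.96 in AcPb-/- mice (0.00906). Bach1 was lower by 0.11 on the log2 scale in wild-type mice without passing (adjusted p = 0.369) and fell in AcPb-/- mice (-0.23, 0.0465). In all, 2 of the 10 regulators rose and 2 fell in wild-type mice, and 2 rose and 3 fell in AcPb-/- mice, beside 25.4% and 27.4% of all genes called. NRF2 is controlled mainly as a protein, which these data do not measure.

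Of 20 other NRF2 targets, 1 rose and 4 fell in wild-type mice and 0 rose and 7 fell in AcPb-/- mice, with median log2 values of -0.11 and -0.19. The 5 and 7 called of 20 stand beside the 25.4% and 27.4% of all genes called. Of all genes, 12.2% and 13.3% were called lower, and 13.2% and 14.1% higher. The list was chosen with earlier results of these data known, so its counts are not a test. The targets that fell in both genotypes were Txn1, cytosolic thioredoxin (-0.57, limma adjusted p = 0.0158, and -0.67, 0.0021), Ftl1, ferritin light chain (-0.45, 0.0131, and -0.60, 0.00475), Prdx1, a peroxiredoxin (-0.40, 0.0357, and -0.42, 0.0109), and Tkt, transketolase of the pentose phosphate pathway (-0.20, 0.0285, and -0.25, 0.0264). Cbr1 and Cbr3, carbonyl reductases, and Abcc1, an exporter of glutathione conjugates, fell in AcPb-/- mice. Ftl1 and Prdx1 have near-identical pseudogene copies, so their counts depend on how such reads were assigned. The gene that rose in wild-type mice was the exporter Abcc4 (0.40, 0.00694), with a value of 0.30 in AcPb-/- mice (0.0721).

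Of 15 genes of the glutathione system, Slc3a2 and Gpx4, the peroxidase of lipid hydroperoxides (0.19, limma adjusted p = 0.0295), rose and the glutaredoxin Glrx (-0.23, 0.047) fell in wild-type mice, while Ggt7 (-0.27, 0.0227) fell in AcPb-/- mice and none rose. These 2 higher and 1 lower of 15 in wild-type mice, and 0 higher and 1 lower in AcPb-/- mice, stand beside 25.4% and 27.4% of all genes called. The median log2 values were 0.03 and -0.03.

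The list of 14 genes that handle superoxide, peroxide and thioredoxin had the lowest median among the members and the 4 pathway lists, -0.27 in wild-type and -0.36 in AcPb-/- mice. In wild-type mice 9 fell and 1 rose, beside 12.2% and 13.2% of all genes, and in AcPb-/- mice 8 fell and 1 rose, beside 13.3% and 14.1%. The list was chosen with earlier results of these data known and holds the peroxiredoxins other than Prdx1, so these counts are not a test. Prdx4, the peroxiredoxin of the endoplasmic reticulum, had counts of 427, 488 and 537 in CTL-WT and 261, 278 and 358 in SD-WT, and 445, 491 and 529 in CTL-AcPbKO and 296, 325 and 355 in SD-AcPbKO. It fell by 0.70 on the log2 scale in wild-type (limma adjusted p = 0.0048) and by 0.58 in AcPb-/- mice (0.00555), with no overlap of groups. Prdx6 (-0.38, 0.0027, and -0.41, 0.0102), Ccs, the copper chaperone of Sod1 (-0.35, 0.0162, and -0.46, 0.00423), and Txnrd2, the mitochondrial thioredoxin reductase (-0.34, 0.03, and -0.53, 0.00414), fell in both. So did Sesn2, a sestrin (-0.27, 0.048, and -0.41, 0.0145). Txnrd3, another thioredoxin reductase, fell in wild-type mice (-0.49, 0.0259) and had a value of -0.46 in AcPb-/- mice (0.0707). Mitochondrial thioredoxin Txn2 was the gene that rose in wild-type mice (0.20, 0.0261), and Txnl1 the one in AcPb-/- mice (0.20, 0.0243).

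All 6 peroxiredoxin genes, a group put together after their values were seen and of which Prdx1 stands in the list of targets, fell in both genotypes, with log2 values of -0.70 to -0.24 in wild-type and -0.58 to -0.18 in AcPb-/- mice and no overlap of groups for any of the 6. Of all genes, 12.2% and 13.3% were called lower, and 19.7% and 20.7% had SD groups apart from and below controls. As the group was picked by its values, its count is not a test. Srxn1 moved in the opposite direction to the peroxiredoxin genes, and no link between it and these genes was tested. From libraries without Xist reads alone, their log2 values were -0.53 to -0.18 in wild-type and -0.60 to -0.14 in AcPb-/- mice and 0 of the 6 were called in either genotype, in a fit that called 680 of 20768 genes in wild-type and 2080 in AcPb-/- mice. With a term for Xist reads in the fit of 12 libraries, 2 were called lower in wild-type and 3 in AcPb-/- mice. That fit called 4057 and 5189 of 20978 genes in either direction. Across the 4 lists, libraries without Xist reads gave 1 regulator higher in wild-type mice, and 2 regulators higher and 1 regulator and 1 other target lower in AcPb-/- mice, with 0 calls in the list of superoxide, peroxide and thioredoxin. In both genotype comparisons, 0 genes of these 4 lists passed the limma threshold, which 4 and 3 of all genes passed. Chac1 of the glutathione list, picked out after its values were seen, was at 242 to 300 in CTL-AcPbKO and 467 to 475 in CTL-WT. After SD it was at 199 to 255 in SD-AcPbKO and 420 to 567 in SD-WT. Of the 15 genes of that list, groups were apart for 1 higher and 1 lower in undisturbed mice, and for 1 higher and 3 lower after SD. Groups were apart for 14.4% and 11.4% of all genes.

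**Figure D4:**
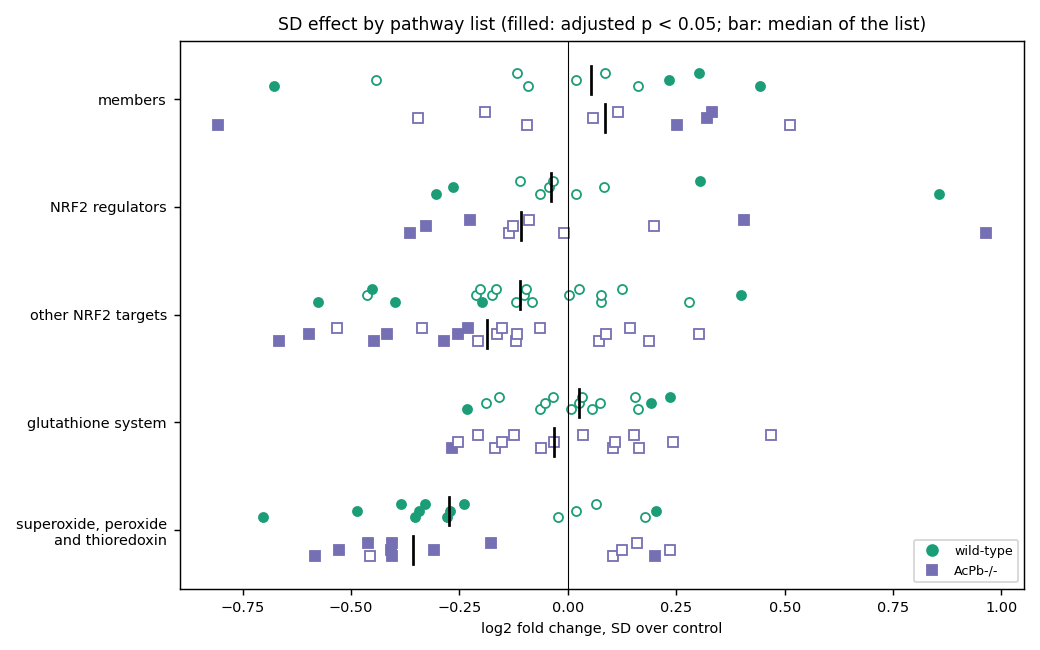
Log2 fold change of SD over control for each gene of the members and of 4 other lists, in wild-type (circles) and AcPb-/- mice (squares), filled at an adjusted p under 0.05, with the list's median as a black bar. The medians of the superoxide, peroxide and thioredoxin list were -0.27 and -0.36, and those of the members 0.05 and 0.09.

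Marker levels of other cell types are given beside these results. Endothelial markers were higher past the threshold with SD for 3 of 5 and lower for 1 of 5 in both genotypes, with summed levels of 10004 to 11020 in CTL-WT, 10910 to 13289 in SD-WT, 9964 to 11315 in CTL-AcPbKO and 10325 to 12325 in SD-AcPbKO. Microglial markers were lower for 0 of 6 in wild-type and 3 of 6 in AcPb-/- mice, with summed levels of 11304 to 13456 in SD-AcPbKO against 15162 to 16068 in CTL-AcPbKO. Border macrophage markers summed to 571 to 654 in CTL-WT and 640 to 746 in SD-WT, and to 511 to 798 in CTL-AcPbKO and 683 to 877 in SD-AcPbKO, so the ranges overlapped, and 1 of the 5 was higher past the threshold in wild-type mice. Oligodendrocyte markers were lower for 4 of 6 in wild-type and 1 of 6 in AcPb-/- mice, with summed levels of 106978 to 136457 in CTL-WT, 86352 to 119034 in SD-WT, 53954 to 124101 in CTL-AcPbKO and 69595 to 104115 in SD-AcPbKO. Markers of striatal neurons were lower past the threshold for 2 of 6 in wild-type and 0 of 6 in AcPb-/- mice, with summed levels of 7960 to 13476 in CTL-WT, 7428 to 10031 in SD-WT, 8777 to 9568 in CTL-AcPbKO and 9844 to 11775 in SD-AcPbKO. Of the red blood cell markers, 4 of 5, all of them globins, were listed at 0 in every library, and why was not tested. The other marker, Alas2, was at 143 to 352 in CTL-WT, 144 to 325 in SD-WT, 191 to 427 in CTL-AcPbKO and 180 to 310 in SD-AcPbKO. The globin values therefore do not show that blood cells were absent. The part of these cells in the member values was not tested.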

How the data were processed

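The authors extracted total RNA from somatosensory cortex and made libraries with a TruSeq stranded mRNA kit. Reads were aligned with HISAT2 (version 2.2.1 in the submitters' processing notes) to mm10. The methods name HTSeq as the counter and the processing notes featureCounts, with DESeq2 (version 1.31.16) for comparison. The deposited values are signal, that is read counts per gene divided by each library's DESeq2 size factor, in 5 tables of 2 groups each. The authors' own fold changes and p-values stand beside them and were not used. Undoing the size factors gave whole reads (within 0.01) for 100.0% of 732630 values, and 0 counts differed between tables. Of 16 samples in the labels, 12 have a column, and 4 were not analysed here. Replicates were separate samples, and each pair differed by more than sampling noise. Intervals cover the spread between these libraries.

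As the values are normalized, limma 3.58.1 (R 4.3.3) with a variance trend was fitted within each table to log2(normalized count + 1) of all genes with a value above 0, with 4 residual degrees of freedom. Interaction and mean SD effect came from 12 libraries normalized together (8 residual degrees of freedom). P-values were adjusted by Benjamini-Hochberg over all genes, with a threshold of 0.05. Alternatives were edgeR 4.0.16 and DESeq2 1.42.0 on recovered reads, other filters, pseudocounts and scalings, GC and length correction, thinning, a term for Xist reads, a replicate block and leaving out each library, and after the data were seen only libraries without Xist reads. Scripts were tested on simulated data. Positions and transcript lengths are from GENCODE M21 (GRCm38), which matched 95.7% of symbols. The genes named are the 10 members, Nfe2l2, Keap1 and Bach1, of each further list up to 5 genes past the threshold with a mean of at least 100 and the largest changes, and genes of counts of 5 or fewer. Chac1 was named in addition. Members and lists were chosen with earlier results of these data known.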

Additional observations from a re-analysis of the deposited data

How the results depend on the processing

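Hmox1 and Nqo1 have the fewest reads, and 3 libraries per group limit every call. The number of members called with SD in wild-type mice, 4, was 2 with no filter on low genes (2937 of all 24421 genes called), 1 from libraries without Xist reads alone (680 of 20768) and 0 with the replicate block (0 of 20417), and 2 to 6 when 1 library was left out (2 without CTL-WT 2 or SD-WT 1). In AcPb-/- mice 4 became 2 after GC and length correction (5176 of 20574 genes) and 0 with the block (0 of 20574), and 3 to 4 with 1 library left out. For SD-AcPbKO against CTL-WT, 4 became 1 without a variance trend (3401 of 20560 genes), 0 with the block (0 of 20560), 2 from libraries without Xist reads (1318 of 20768), and 2 to 4 with 1 library left out (2 without SD-AcPbKO 2). As the block called no gene at all in these comparisons, its counts say nothing about the members. Under the block the adjusted p-values of Srxn1 and Slc7a11 were 0.092 in wild-type mice, with log2 values of 0.29 and -0.81 and fewer residual degrees of freedom. Replicate numbers were shared by 2 pairs per comparison, with correlations of their deviations of 0.10 and -0.07 in wild-type mice, -0.14 and -0.02 in AcPb-/- mice and 0.22 and 0.23 between the SD groups, and nothing in the labels ties the numbers to a litter or day, so the numbers were not taken to pair samples. For CTL-AcPbKO against CTL-WT no paired analysis was possible because the groups share fewer than 2 numbers. Of the superoxide, peroxide and thioredoxin list, 10 calls in wild-type mice became 2 with no filter or no variance trend, 0 from libraries without Xist reads or with the block, and 3 to 11 with 1 library left out, and 9 in AcPb-/- mice became 5 without a trend, 0 and 0, and 6 to 9. Counts of 0 in the genotype comparisons and the interaction stayed 0 under each alternative, and that of 7 for the mean SD effect was 5 to 8.

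Signs changed for values that were not called, and the cause was not tested. From libraries without Xist reads, Cat was -0.080 with SD in wild-type mice and -0.087 in SD-AcPbKO against CTL-WT. In CTL-AcPbKO against CTL-WT, Txnrd1 was then -0.12, Srxn1 -0.026 and Gsr 0.036, with Gsr at 0.0026 after GC and length correction, and the interaction was -0.00077 for Gclc and 0.19 for Slc7a11. In SD-AcPbKO against SD-WT, thinning gave -0.038 for Nqo1 and 0.018 for Cat, and the block gave 0.0078 for Gsr and 0.019 for Cat. With the block the interaction was -0.012 for Gclc and 0.027 for Gsr. With 1 library left out, ranges that crossed 0 were in SD-WT against CTL-WT Cat -0.018 to 0.088, in SD-AcPbKO against CTL-AcPbKO Cat -0.012 to 0.099 and in CTL-AcPbKO against CTL-WT Nqo1 -0.030 to 0.13, Txnrd1 -0.012 to 0.067, Gsr -0.048 to 0.015 and Cat -0.084 to 0.024. They were also in SD-AcPbKO against SD-WT Gsr -0.057 to 0.024, Cat -0.075 to 0.027 and Sod1 -0.096 to 0.070, in SD-AcPbKO against CTL-WT Cat -0.024 to 0.063 and in the interaction Hmox1 -0.11 to 0.18, Nqo1 -0.013 to 0.25, Gclc -0.027 to 0.066, Txnrd1 -0.013 to 0.065, Srxn1 -0.014 to 0.069, Gsr -0.045 to 0.034, Cat -0.035 to 0.076 and Sod1 -0.15 to 0.018.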
